A study of Mus musculus with 4 samples.

Results

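Of the 63759 transcripts in the deposited RPKM table, 5346 were at least 200 bases long and had a length equal to their genomic span, so that they held no intron. The 1523 of these with at least 1 RPKM in at least 1 of 4 libraries are described here. RPKM is a read count corrected for transcript length and sequencing depth. The members were therefore selected on the measured RPKM of the same libraries that are compared below. RNA-seq was performed on total RNA from immortalized C57BL/6 mouse embryonic fibroblasts (MEF), grown from the bodies of embryos at embryonic day 15.5. The cells were *Hmga2*+/+ (wild type) or *Hmga2*-/-, the latter without the architectural chromatin protein HMGA2. All cells were starved overnight in 1% FCS and then received 10 ng/ml human recombinant TGFB1, or water (Ctrl), for 24 h. Each of the 4 conditions had 1 library. No difference given here has a replicate check, and intervals at the 95% level cover counting error only.

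Most mammalian genes are split by introns. Genes without introns include those of the replication-dependent histones, many immediate-early transcription factors such as *Jun*, and many G-protein coupled receptors, and their transcripts need no splicing before export. A single-exon entry of an annotation can also be something else: the reading frame of a spliced gene that lies in 1 exon, a stretch of the last exon, or a fragment of an intron.

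The libraries held 56140000 to 57290000 mapped reads, derived from the steps of low RPKM values, and the members had a median of 276 to 298 reads per library. The *Hmga2* transcript was at 14.8 RPKM in wild-type Ctrl cells, at 40.7 after TGFB1, and at 0 in both knockout libraries. TGFB1 target genes were higher with TGFB1 in both genotypes: *Ctgf* (named *Ccn2* in the annotation) had 13.2 RPKM in Ctrl and 173 with TGFB1 in wild-type cells, then 24.9 and 359 in the knockout. The fibroblast genes *Col1a1* (272 to 363 RPKM) and *Vim* (958 to 1497) were abundant in all libraries, *Thy1* (4.11 to 8.88) and *Dcn* (2.07 to 8.46) were lower, and *Lum* (0.246 to 1.08) was below 1 RPKM in 3 of them. Of the other markers, *Epcam*, *Cdh1*, *Krt8*, *Krt18*, *Ptprc*, *Adgre1*, *Pecam1*, *Cdh5*, *Myod1*, *Myog* and *Des* stayed below 1 RPKM, whereas *Cd68* (1.25 to 1.63 RPKM) and *Kdr* (1.11 to 7.39) did not.

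Members were 203 to 83436 bases long with a median of 1873 bases, and 1172 of them had at least 1 RPKM in all 4 libraries. Their median mean level was 2.77 RPKM, against 6.74 RPKM for the 28838 multi-exon transcripts of the same minimum length and RPKM. By GENCODE vM21, 1175 members (77.2%) overlapped an exon of a spliced transcript on their own strand. A further 86 lay in an intron, 79 overlapped a spliced gene only on the other strand, and 183 lay apart from spliced transcripts. The annotation gave a gene for 1457 members and none for 66. In the group apart from spliced transcripts 149 of 183 were exons of protein-coding genes, and in the antisense group 36 of 79 were. In the intronic group 19 of 86 were, and 55 were named only for the gene whose intron or span holds them.

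The sequences show what these entries are. Of the 901 members that lie inside 1 annotated exon and so could be read from GENCODE transcripts, 346 run exactly from a start codon to a stop codon with no stop codon between. Their first and last 30 bases are printed for 4 members that the results below turn on, with the start and stop codons in capitals. They are *Agtr2*, an angiotensin receptor (chrX:21486129-21487220, plus strand, mm10), *Prss35*, a serine protease-like protein (chr9:86755179-86756408, plus strand), and the connexins *Gja1* (chr10:56387547-56388695, plus strand) and *Gjb2* (chr14:57100069-57100749, minus strand).
Agtr2, first bases: ATGaaggacaacttcagttttgctgccacc
Agtr2, last bases: cttagagaaatggacacctttgtgtctTAA
Prss35, first bases: ATGgaaaatacgttactctggttggtaatt
Prss35, last bases: ggaaacgctgccaactgtgcttacggcTGA
Gja1, first bases: ATGggtgactggagcgccttggggaagctg
Gja1, last bases: agacctcggcctgatgacctggagattTAA
Gjb2, first bases: ATGgattggggcacactccagagcatcctc
Gjb2, last bases: tgctcaggaaagtccaaaagaccagtcTAA

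Of the reading-frame members inside a spliced exon, 2.65% held AATAAA or ATTAAA, the core polyadenylation signals, in their last 50 bases. In the group apart from spliced transcripts, 58.4% of 89 members with sequence held 1 of these signals. Some other members ended where the genomic sequence turns to A. The next 20 bases could be read only for members that end at least 20 bases inside an annotated exon. Of 576 members partly in a spliced exon, 196 had sequence and 18 had these next bases, so the 18 do not stand for the group. At least 12 A among the 20 bases after the end were found in 8 of 18 members that lie partly in a spliced exon (44.4%) and in 22 of 107 other members wholly in an exon (20.6%), but in 2 of 332 reading-frame members (0.602%). The last 10 bases of 4 such members are given in lower case, followed by the next 20 in capitals. The entry of *Sned1*, which is described below and has 9 A in the next 20 bases, is shown beside them. They lie at chr13:83527330-83527359 (plus strand), chr5:72556415-72556444 (minus), chr3:32740169-32740198 (plus), chr9:63398282-63398311 (minus) and chr1:93298918-93298947 (plus).
Mef2c: attgaatcctAAAAAAAAAAACAATATACT
Nfxl1: tactgatccgGAAAAAAAAAAAAAAGAGGT
Ndufb5: acacacacctAAAAAATAATAAAAAACTTA
2300009A05Rik: aatagctgctAAAAAAAATATTAACTTAGA
Sned1: gtgggccaccAAAACGAAAATACTTTCTTT

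Replication-dependent histone transcripts end in a stem-loop and not in a poly(A) tail. The motif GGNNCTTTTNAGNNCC, searched on the transcript strand, was found in 16 of 17 such members with sequence, 4 to 7 bases from the end. Among the 881 other members with sequence outside the histone families, 1 held it. The stem-loops of *Hist2h2ac* (chr3:96220413-96220438, minus strand) and *Hist1h1e* (chr13:23621777-23621802, minus strand), both among the most abundant histone members, are given in capitals with 5 bases on each side.
Hist2h2ac: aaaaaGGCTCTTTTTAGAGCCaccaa
Hist1h1e: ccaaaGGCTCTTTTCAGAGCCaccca

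With TGFB1, 179 members (11.8%) were at least 1.5-fold higher and 262 (17.2%) at least 1.5-fold lower in *Hmga2*+/+ MEF. Over all 30923 transcripts with at least 1 RPKM in 1 library, 11% were higher and 17.3% lower, so that the members as a whole were close to the background. In *Hmga2*-/- MEF 189 members (12.4%) were higher and 270 (17.7%) lower, beside 12.3% and 16.2% of all transcripts. The members had a median log2 change of -0.05 in wild-type and -0.06 in knockout cells, beside -0.06 and -0.02 for all transcripts. Between the genotypes, whose libraries are separate for this comparison, 123 members were higher with TGFB1 in both, which is 68.7% of the *Hmga2*+/+ list and 65.1% of the *Hmga2*-/- list. A further 180 were lower in both (68.7% and 66.7%), 3 were lower in *Hmga2*+/+ and higher in *Hmga2*-/-, and 0 went the other way. The same overlap was not counted over all transcripts, so it cannot be called particular to the members.

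With the level matched, the shares differed from those of multi-exon transcripts in some ranges and not in others. At a mean of 3 to 10 RPKM the shares lower with TGFB1 were close, and those higher were larger in the members. There 14.3% of 449 members and 15.3% of 11127 multi-exon transcripts were lower with TGFB1 in *Hmga2*+/+ MEF, and 15.4% and 14.1% in *Hmga2*-/- MEF. The shares higher with TGFB1 were 12.5% and 9.27% in *Hmga2*+/+ MEF, and 13.8% and 11.2% in *Hmga2*-/- MEF. Among transcripts with a mean of 1 to 3 RPKM, 107 of 652 members (16.4%) were lower with TGFB1 in *Hmga2*+/+ MEF, against 1765 of 6020 multi-exon transcripts (29.3%). In *Hmga2*-/- MEF the shares were 17.6% and 26.1%. From 10 RPKM on, the order was the other way. At 10 to 30 RPKM, 14.6% of 198 members and 9.4% of 7573 multi-exon transcripts were lower in *Hmga2*+/+ MEF, and 13.6% and 9.43% in *Hmga2*-/- MEF. At 30 RPKM or more, 11.6% of 69 members and 5.19% of 3007 multi-exon transcripts were lower in *Hmga2*+/+ MEF, and 8.7% and 5.39% in *Hmga2*-/- MEF. In this highest range 10.1% of the members and 15.9% of the multi-exon transcripts were higher with TGFB1 in *Hmga2*+/+ MEF. The highest range held 7 members that were higher and 8 that were lower, and several multi-exon transcripts of 1 gene count separately, so the shares are a description of these libraries.

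**Figure D1:**
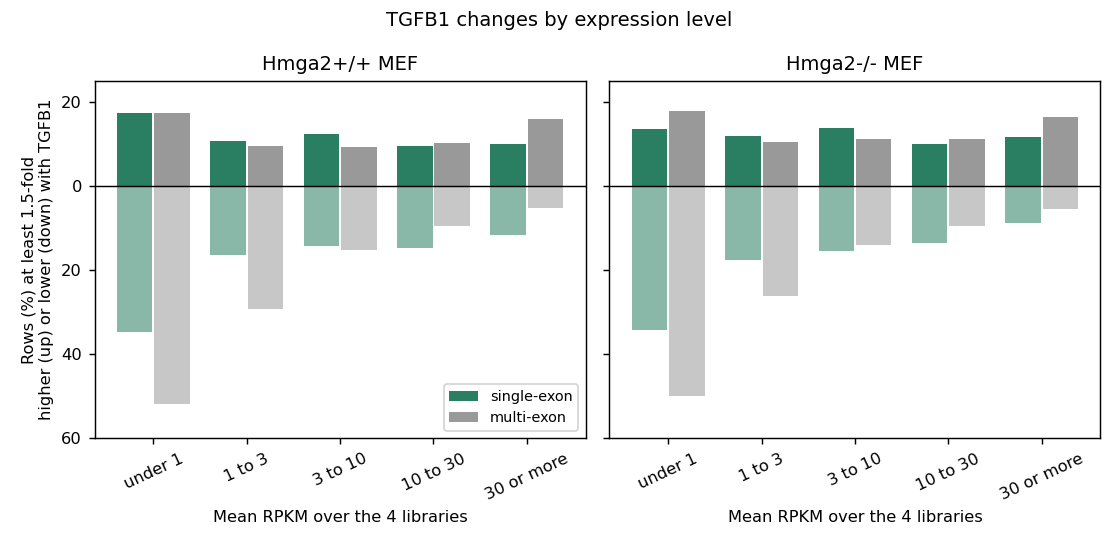
Share of transcripts at least 1.5-fold higher (bars up, %) or lower (bars down, %) with TGFB1, by mean RPKM over the 4 libraries, for single-exon members (green) and multi-exon transcripts (grey) in each genotype. At 1 to 3 RPKM 16.4% of members and 29.3% of multi-exon transcripts were lower in Hmga2+/+ MEF, and at 30 RPKM or more 11.6% and 5.19% were. At 3 to 10 RPKM the shares lower in Hmga2+/+ MEF were close, at 14.3% and 15.3%.

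In the antisense group 24 of its 79 members (30.4%) were lower in each genotype, and the median log2 change was -0.25 in both. Its median mean level was 2 RPKM, in the range where 16.4% of the members and 29.3% of multi-exon transcripts were lower in *Hmga2*+/+ MEF. Of the 183 members apart from spliced transcripts 18 were higher and 31 lower in *Hmga2*+/+ MEF (9.84% and 16.9%). In the exon-overlapping group 12% were higher and 16.3% lower.

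Among members with at least 1 RPKM and 20 reads in both libraries, the largest fall with TGFB1 in both genotypes was in *Sned1*, which encodes an extracellular matrix protein. Its entry (chr1:93296299-93298927, plus strand) had 25.2 RPKM in wild-type Ctrl cells and 1.97 RPKM after TGFB1. The knockout libraries had 30.4 and 1.93 RPKM. Both Ctrl libraries were thus far above both TGFB1 libraries, with a log2 change of -3.67 (interval -3.85 to -3.50) in *Hmga2*+/+ and -3.98 (-4.15 to -3.81) in *Hmga2*-/- MEF. *Ptn*, the gene of the secreted growth factor pleiotrophin, had 361 and 54 RPKM in *Hmga2*+/+ Ctrl and TGFB1, and 259 and 27.2 in *Hmga2*-/- Ctrl and TGFB1 (chr6:36714929-36715534, minus strand). It was the most abundant of the members named for a fall, and its log2 changes were -2.74 and -3.25.

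The reading frame of *Agtr2*, printed above, had 12.7 RPKM in *Hmga2*+/+ Ctrl and 1.98 with TGFB1, and 7.04 and 0.435 RPKM in the knockout. That of *Prss35* went from 10.3 to 2.36 and from 8.35 to 1.76 RPKM. Both were lower with TGFB1 in each genotype, with log2 changes of -2.67 and -2.13 in wild-type cells. *Thbd*, an intronless gene for the anticoagulant receptor thrombomodulin (chr2:148404471-148408188, minus strand), had 15 and 20.5 RPKM in the Ctrl libraries of *Hmga2*+/+ and *Hmga2*-/- MEF and 3.59 and 3.69 in the TGFB1 libraries. *Gas1*, an intronless gene for a membrane protein that binds hedgehog ligands (chr13:60174405-60177535, minus strand), had 33.2 and 36.1 RPKM in Ctrl and 9.9 and 7.46 with TGFB1. The TGFB1 libraries of both genes were below both Ctrl libraries, with log2 changes of -2.06 and -1.75 in *Hmga2*+/+ MEF and -2.47 and -2.27 in *Hmga2*-/- MEF. *Gm4951*, a gene of the interferon-inducible GTPase family, also belonged to the 5 largest falls of *Hmga2*-/- MEF, from 10.8 to 2.15 RPKM, and went from 10.1 to 3.19 RPKM in *Hmga2*+/+ MEF.

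*Hist2h2aa2*, an H2A histone gene (chr3:96239779-96240374, minus strand), did not follow one direction. It had 6.32 RPKM in *Hmga2*+/+ Ctrl, 1.29 in *Hmga2*+/+ TGFB1, 1.69 in *Hmga2*-/- Ctrl and 2.66 in *Hmga2*-/- TGFB1. Only the *Hmga2*+/+ Ctrl library was high, and the values rest on 44 to 211 reads. Histone genes of this family have near-identical copies, so the assignment of these reads is uncertain.

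Among the rises, the largest in *Hmga2*+/+ MEF was an entry of *Slc20a1*, which encodes a sodium-dependent phosphate transporter. The entry (chr2:129205190-129207309, plus strand) lies mostly in an intron, with 167 of its bases in a spliced exon. It had 4.35 and 22.1 RPKM in *Hmga2*+/+ Ctrl and TGFB1, and 4.09 and 25.2 in *Hmga2*-/- Ctrl and TGFB1, which is 5.07-fold and 6.16-fold higher. An entry with no gene name on the minus strand (chr6:31079510-31083050) had 2.66, 12.7, 4.32 and 13.1 RPKM in *Hmga2*+/+ Ctrl, *Hmga2*+/+ TGFB1, *Hmga2*-/- Ctrl and *Hmga2*-/- TGFB1. Both TGFB1 libraries were above both Ctrl libraries, and its log2 changes were 2.26 and 1.60.

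*Sfn*, an intronless gene for the 14-3-3 sigma protein (chr4:133600556-133602168, minus strand), had 1.69 and 6.57 RPKM in *Hmga2*+/+ and 3.05 and 14.7 in *Hmga2*-/- MEF, a log2 change of 1.96 (1.70 to 2.22) and 2.27 (2.09 to 2.47). The *Hmga2*-/- library was higher than the *Hmga2*+/+ library under both treatments. *Arl4c*, a small GTPase of the ARF family (chr1:88698226-88702191, minus strand), had 2.89 and 11.2 RPKM in *Hmga2*+/+ and 4.62 and 12.8 in *Hmga2*-/- MEF. *Mir17hg*, the host transcript of the miR-17-92 microRNA cluster (chr14:115044305-115046728, plus strand), had 1.57 and 5.24 RPKM in *Hmga2*+/+ and 1.41 and 5.02 in *Hmga2*-/- MEF. For *Mir17hg* the genotypes were close under both treatments, with log2 changes of 1.74 and 1.83. *Kctd11*, an adaptor of a ubiquitin ligase (chr11:69878264-69880985, minus strand), had 1.3 and 4.27 RPKM in *Hmga2*+/+ and 1.19 and 6.89 in *Hmga2*-/- MEF, a log2 change of 1.71 and 2.53.

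In *Hmga2*-/- MEF the largest rise was in the connexin reading frame of *Gjb2* (2.29 to 209.9 RPKM). In *Hmga2*+/+ Ctrl it was below the limit for named members, at 0.943 RPKM, and had 114 RPKM with TGFB1.

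**Figure D2:**
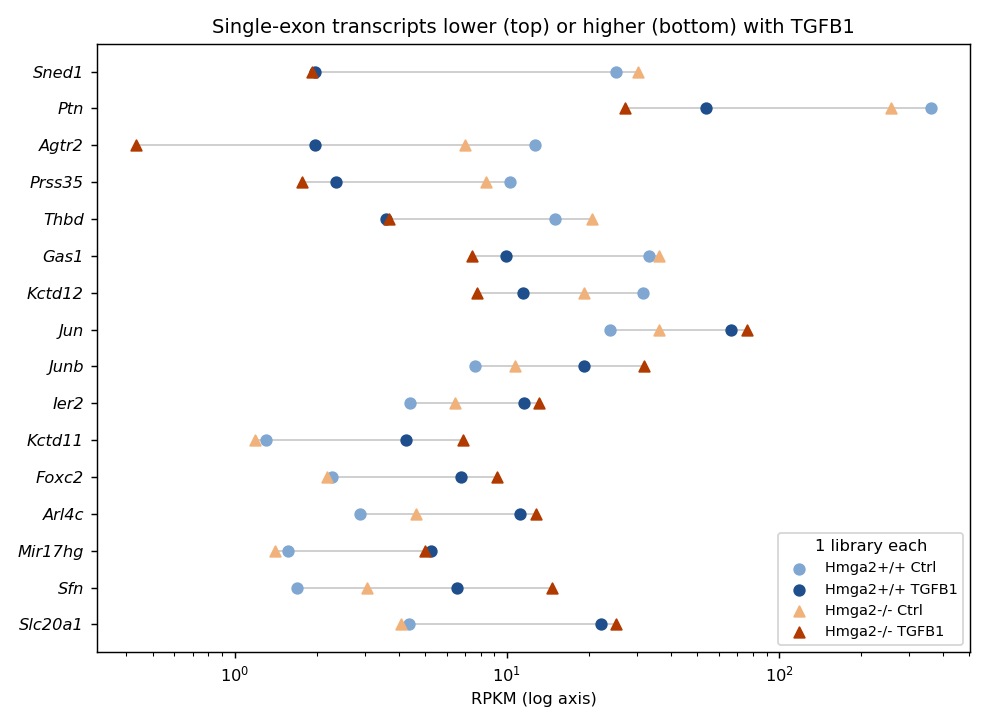
RPKM (log axis) of 16 named single-exon transcripts in each library, with circles for Hmga2+/+, triangles for Hmga2-/-, pale symbols for Ctrl and dark symbols for TGFB1. For each transcript both TGFB1 libraries lie on the same side of both Ctrl libraries, as for Sned1 with 25.2 and 30.4 RPKM in Ctrl and 1.97 and 1.93 with TGFB1.

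Lists of genes with a reading frame in 1 exon, or without introns, were then read by their roles. Some of them also had spliced entries, as *Spry2* and *S1pr3* did. The shares over all transcripts given above, 11% higher and 17.3% lower in *Hmga2*+/+ and 12.3% and 16.2% in *Hmga2*-/- MEF, are the background of each count. Of 10 members for bZIP factors and immediate-early proteins, 5 were higher and 1 lower with TGFB1 in *Hmga2*+/+ MEF, and 5 were higher and 3 lower in *Hmga2*-/- MEF. Their median log2 changes were 0.49 and 0.56, beside -0.06 and -0.02 over all transcripts. *Jun*, a subunit of the AP-1 factor (chr4:95049036-95052222, minus strand), had 23.9 and 66.6 RPKM in *Hmga2*+/+ and 36.2 and 76.4 in *Hmga2*-/- MEF. *Junb*, another AP-1 subunit (chr8:84976909-84978748, minus strand), had 7.65 and 19.2, then 10.7 and 31.9 RPKM. *Ier2*, an immediate-early nuclear protein, had 4.4 and 11.6, then 6.46 and 13.1 RPKM. For these 3 the TGFB1 libraries were above both Ctrl libraries, and the Ctrl library of *Hmga2*-/- MEF was above that of *Hmga2*+/+ MEF by log2 0.60, 0.48 and 0.55. *Ier5* and *Cebpb* were also higher in both genotypes, and *Jund* was not (12.1 and 10.4 RPKM in *Hmga2*+/+ MEF, 13.5 and 11.5 in *Hmga2*-/- MEF).

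Since *Jun*, *Junb* and *Sfn* were higher and *Gas1* lower with TGFB1, the 150 bases before their start sites are given from RefSeq (GRCm38.p6), with matches to TGANNTCA or CCAAT in capitals. TGANNTCA covers the cyclic AMP and AP-1-like sites of 8 bases, and both strands were searched. *Sfn* also had a TGANNTCA match at positions -192 to -185 from the start, outside the bases printed here. They lie on the minus strand at chr4:95052223-95052372, chr8:84978749-84978898, chr4:133602169-133602318 and chr13:60177536-60177685.
Jun: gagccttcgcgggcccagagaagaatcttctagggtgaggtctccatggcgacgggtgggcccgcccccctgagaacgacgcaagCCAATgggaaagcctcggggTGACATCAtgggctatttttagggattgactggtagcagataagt
Junb: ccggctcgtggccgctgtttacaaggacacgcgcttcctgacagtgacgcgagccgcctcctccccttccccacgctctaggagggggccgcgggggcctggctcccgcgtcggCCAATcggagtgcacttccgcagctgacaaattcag
Sfn: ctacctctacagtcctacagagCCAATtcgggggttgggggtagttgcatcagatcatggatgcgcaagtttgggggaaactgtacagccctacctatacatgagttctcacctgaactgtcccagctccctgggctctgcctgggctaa
Gas1: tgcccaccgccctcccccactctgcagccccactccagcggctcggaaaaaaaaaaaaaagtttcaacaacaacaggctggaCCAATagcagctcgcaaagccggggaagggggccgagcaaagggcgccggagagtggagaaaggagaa

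Over 250 bases before the start, TGANNTCA was found in 11.9% of 32851 promoters and CCAAT in 33.8%. Of the protein-coding members that lie apart from spliced transcripts, 74 had a promoter in the table, of which 8.11% held TGANNTCA and 40.5% CCAAT. TGANNTCA occurred in 2 of the 8 that were higher with TGFB1 in both genotypes and in 0 of the 12 that were lower in both, and CCAAT in 4 of the 8 and 5 of the 12. The AP-1 site TGANTCA was in 6.75% of all promoters and 2.7% of these members, with 1 of the 8 and 0 of the 12. *Jun* and *Gas1*, which overlap a spliced gene on the other strand, are not in these counts. These are matches of letters and no measured binding.

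The counts of the other lists are set against the same background of 11% higher and 17.3% lower in *Hmga2*+/+ MEF, and of 12.3% and 16.2% in *Hmga2*-/- MEF. Among 12 members for Sox, Fox, Pou and other transcription factors, 2 were higher and 1 lower with TGFB1 in *Hmga2*+/+ MEF, and 1 was higher and 2 lower in *Hmga2*-/- MEF, close to that background. *Foxc2*, a forkhead factor of mesenchyme, had 2.28 and 6.76 RPKM in *Hmga2*+/+ and 2.19 and 9.18 in *Hmga2*-/- MEF. Its paralog *Foxc1* went the other way, from 20.6 to 12.3 and from 15.7 to 10.1 RPKM. Of 9 receptor members, 4 were lower and 1 higher in *Hmga2*+/+ MEF, and 2 were lower and 1 higher in *Hmga2*-/- MEF. *Fzd8*, a Wnt receptor, went from 5.46 to 2.75 and from 3.9 to 2.21 RPKM, and *S1pr3*, a receptor for sphingosine-1-phosphate, from 4.12 to 1.72 and from 4.62 to 2.63 RPKM. *Htr1b*, a serotonin receptor, was the member that was higher, from 0.2 to 1.53 and from 0.305 to 2.5 RPKM. *Htr1b* reached 1 RPKM only in the TGFB1 libraries, so its rise is tied to the selection of members. Its Ctrl values rest on 13 reads in *Hmga2*+/+ and 20 reads in *Hmga2*-/- MEF.

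Of 12 members for small GTPases and signalling proteins, 2 were higher and 2 lower with TGFB1 in *Hmga2*+/+ MEF, and 0 were higher and 3 lower in *Hmga2*-/- MEF, beside 11% and 17.3%, then 12.3% and 16.2%, of all transcripts. *Kctd12*, an auxiliary protein of GABA-B receptors, went from 31.7 to 11.5 and from 19.2 to 7.74 RPKM. *Spry2*, an inhibitor of receptor tyrosine kinase signalling, went from 8.35 to 4.87 and from 6.83 to 3.91 RPKM. The 3 heat shock members were lower in *Hmga2*+/+ MEF, and 2 of them were lower in *Hmga2*-/- MEF. *Hspa1b*, an inducible HSP70 chaperone, went from 4.87 to 2.43 and from 5.57 to 2.93 RPKM, and has a near-identical copy, *Hspa1a*, so that the split of reads between them is uncertain. Of 54 histone members, 2 were higher and 6 lower in *Hmga2*+/+ MEF, and 2 were higher and 9 lower in *Hmga2*-/- MEF, with median log2 changes of -0.15 and -0.25. The shares of lower histone members were not above the 17.3% of all transcripts in *Hmga2*+/+ MEF, and were close to the 16.2% in *Hmga2*-/- MEF. The linker histone *H1fx* went from 29.7 to 14 and from 27.8 to 13.2 RPKM. Of the 10 members on the mitochondrial genome 7 were named, of which 0 were past 1.5-fold in *Hmga2*+/+ MEF and 1 was higher in *Hmga2*-/- MEF. Of the 3 unnamed ones, 1 was lower in *Hmga2*+/+ MEF.

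*Rpph1* and *Malat1* had the highest mean RPKM outside the mitochondrial genome. *Rpph1*, the RNA subunit of RNase P (chr14:50807447-50807771, minus strand), had 1719 RPKM in *Hmga2*+/+ Ctrl, 1415 in *Hmga2*+/+ TGFB1, 2702 in *Hmga2*-/- Ctrl and 1054 in *Hmga2*-/- TGFB1. It was highest in *Hmga2*-/- Ctrl and lowest in *Hmga2*-/- TGFB1, and TGFB1 gave a log2 change of -0.28 in wild-type and -1.36 in knockout cells. *Malat1*, a long nuclear RNA (chr19:5795690-5802671, minus strand), had 1301 and 856 RPKM in *Hmga2*+/+ and 1115 and 778 in *Hmga2*-/- MEF. *Neat1*, which builds paraspeckles, went from 23.5 to 13.8 and from 18.7 to 13.1 RPKM. The log2 changes of *Malat1* and *Neat1* were -0.60 and -0.77 in wild-type cells and -0.52 for each in the knockout, where they did not pass 1.5-fold. *Rmrp*, the RNA of RNase MRP, had 153 and 154, then 190.2 and 183 RPKM. The other 3 members of highest mean level were *Hist2h2bb* (307 to 388 RPKM over the libraries) and the reading frames of *Gja1* (259 to 372) and *Tceal9* (169 to 264).

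The members were next compared with the spliced transcript of the table that spans them on the same strand, which is called the host. Where a member lies in exons, its reads also count for the host, so that the same reads enter both values. For 326 reading-frame members the median log2 change of the member minus that of the host was 0.00 in both genotypes, and past 1.5-fold 4 members were below and 2 above their host in *Hmga2*+/+ MEF, and 4 and 8 in *Hmga2*-/- MEF. The reading frame of *Agtr2* and its host (17.8, 2.98, 9.39 and 0.839 RPKM in *Hmga2*+/+ Ctrl, *Hmga2*+/+ TGFB1, *Hmga2*-/- Ctrl and *Hmga2*-/- TGFB1) were both low with TGFB1, and so were *Prss35* and its host (10.1, 2.65, 8.49 and 1.6 RPKM in the same order). For *Gjb2* the host had 0.586 and 51.7 RPKM in *Hmga2*+/+ and 1.09 and 94.3 in *Hmga2*-/- MEF.

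The *Sned1* entry is not an intronic fragment. It lies wholly in the last exon of the gene, with all of its 2629 bases in a spliced exon. The spliced *Sned1* entry that ends just inside it had 9.61 and 0.609 RPKM in *Hmga2*+/+ and 11 and 0.808 in *Hmga2*-/- MEF. Its log2 changes of -3.98 and -3.77 stood beside -3.67 and -3.98 for the single-exon entry. *Ptn* was of the same kind. Its spliced entry, which stops upstream of the single-exon entry, had 64.8 and 8.86 RPKM in *Hmga2*+/+ and 43.7 and 3.99 in *Hmga2*-/- MEF, with log2 changes of -2.87 and -3.45 beside -2.74 and -3.25. In all, 202 members had no spanning host but a spliced entry of the same gene. The members differed from that entry by a median log2 change of -0.02 in wild-type and -0.01 in knockout cells, and 192 and 191 of them by less than 1.5-fold. The entries named *Lars2* and *Gm15564* have introns in the table and are not members.

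Intronic members differed from their hosts more than exonic ones, whose reads also count for the host. For 69 of the 86 a host of at least 1 RPKM was found, and 51 of these were named for the same gene as the host. The median level of the member was 0.103 of the host level in *Hmga2*+/+ Ctrl. In *Hmga2*+/+ MEF the median log2 change of the member minus that of the host was -0.07, with quartiles of -0.24 and 0.23, and 39 members were below their host. In *Hmga2*-/- MEF the median was -0.35, with quartiles of -0.59 and -0.07, and 54 of the 69 were below. The difference was lower in *Hmga2*-/- than in *Hmga2*+/+ MEF for 56 of the 69 pairs, by a median log2 of -0.23. Members partly in a spliced exon showed the same order with smaller values, with a median of -0.06 in *Hmga2*+/+ and -0.13 in *Hmga2*-/- MEF over 439 pairs, of which 261 and 315 were below the host.

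By the share of a member that lies in spliced exons, the median difference in *Hmga2*-/- MEF was -0.33 at 0%, -0.15 up to 10%, -0.13 from 10 to 50%, 0.01 from 50 to 95% and 0.00 above 95%. In *Hmga2*+/+ MEF the medians were -0.07, -0.06, -0.09, -0.01 and 0.00. Reads in shared exons count for member and host, which draws the difference toward 0 as the exon share rises. The values near 0 at high shares are therefore no separate result. The intronic reads of *Hmga2*-/- MEF with TGFB1 come from 1 library, so the condition and that library cannot be told apart.

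**Figure D3:**
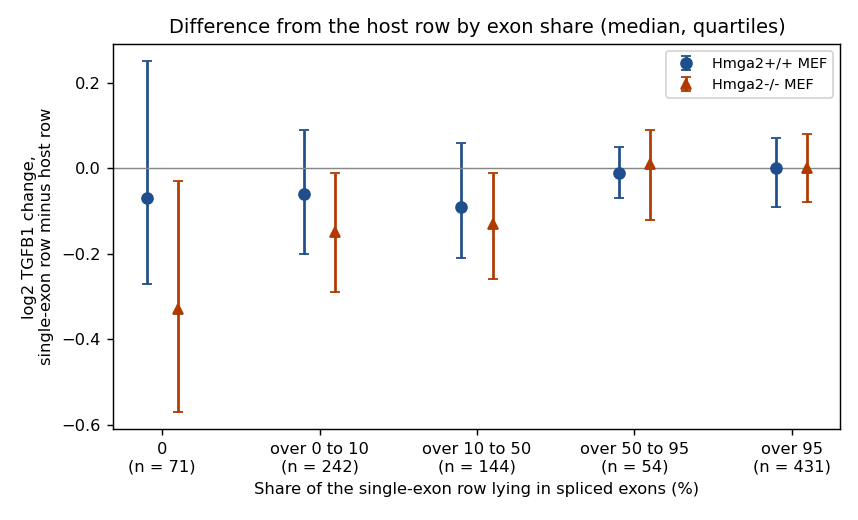
Log2 TGFB1 change of single-exon members minus that of their host, by the share of the member in spliced exons; symbols are medians and bars the quartiles over pairs, blue for Hmga2+/+ and orange for Hmga2-/- MEF. The median falls to -0.33 for members without exonic bases in Hmga2-/- MEF and is -0.07 in Hmga2+/+ MEF. Reads in shared exons count for member and host, which draws the values at high shares toward 0.

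**Figure D4:**
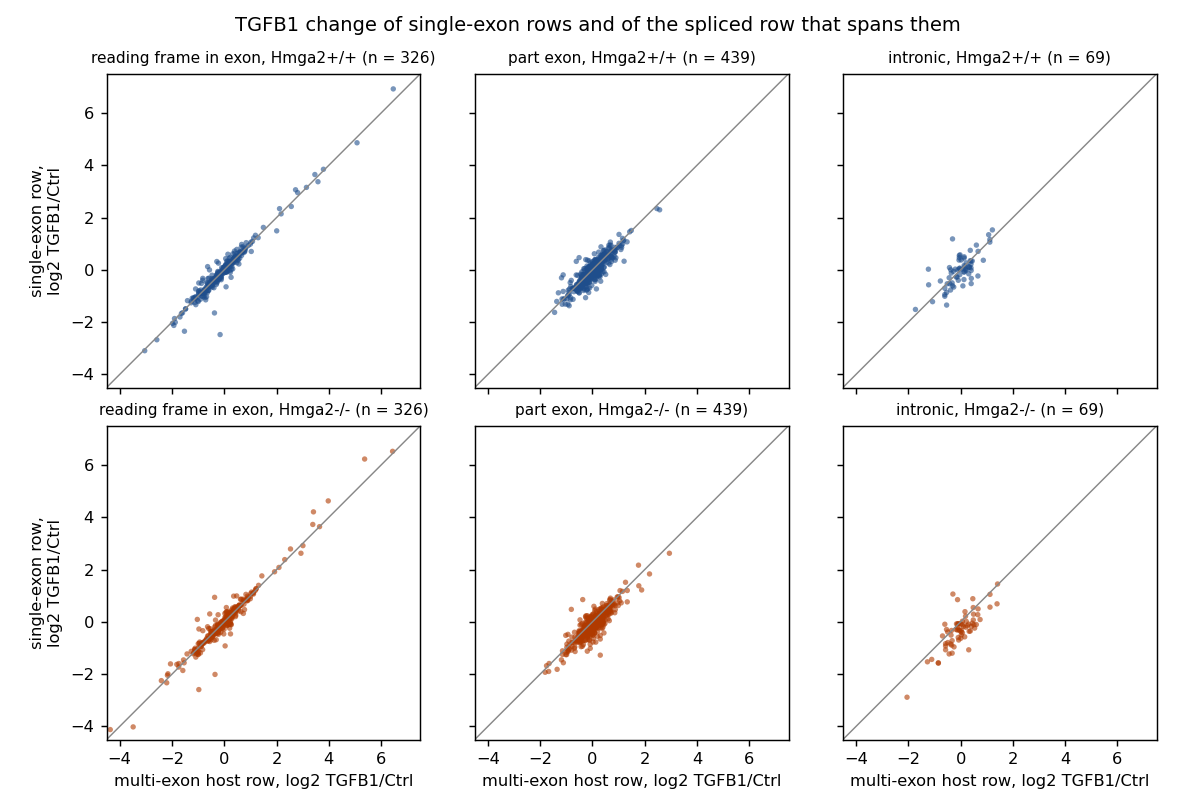
Log2 TGFB1/Ctrl of each single-exon member (vertical) against its spliced host (horizontal), for reading-frame, partly exonic and intronic members in Hmga2+/+ (top) and Hmga2-/- MEF (bottom); the line marks equal change. The 326 reading-frame members, whose reads also count for the host, follow the line, and 54 of 69 intronic members lie below it in Hmga2-/- MEF.

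Of the intronic members with at least 1 RPKM and 20 reads in both *Hmga2*+/+ libraries, for member and host alike, *Kti12* stood highest above its host. *Kti12*, an intronless gene of tRNA modification inside *Txndc12* (chr4:108847857-108849412), had 3.81 and 8.65 RPKM in *Hmga2*+/+ and 4.35 and 9.09 in *Hmga2*-/- MEF. Its host had 35.1 and 28.3, then 33.2 and 27.1 RPKM, so that member and host went in opposite directions in both genotypes, with a difference of log2 1.49 and 1.36. The next 4 above their host were in *Cald1*, *Dclre1c*, *Purg* and *Tcf20*, with differences of 0.59, 0.51, 0.51 and 0.43. In *Hmga2*-/- MEF these were 0.03, 0.97, -0.30 and 0.08, so only that of *Dclre1c* stayed as large, and the counting interval of its log2 change in *Hmga2*+/+ MEF spanned 0 (-0.37 to 1.32).

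On the other side, a fragment in an intron of *Celf1*, an RNA-binding splicing factor, had 1.36 and 1.15 RPKM in *Hmga2*+/+ and 1.21 and 1.02 in *Hmga2*-/- MEF. Its host was higher with TGFB1, from 13.8 to 21.8 and from 14.4 to 21 RPKM, and the difference was -0.90 and -0.78. The entries in *Mtdh* and *Tsc22d1* were below their hosts in both genotypes as well (-0.50 for each in *Hmga2*+/+ MEF, -0.66 and -0.73 in *Hmga2*-/- MEF). *AA413626* in *Thoc5* was not, with -0.74 and 0.22.

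Between the Ctrl libraries, 45 members (2.95%) were at least 1.5-fold higher and 57 (3.74%) lower in *Hmga2*-/- than in *Hmga2*+/+ MEF, beside 2.55% and 2.43% of all transcripts. Between the TGFB1 libraries 59 were higher and 83 lower (3.87% and 5.45%), beside 3.22% and 2.81%. Of the 86 intronic members, 1 (1.16%) was higher and 12 (14%) were lower in *Hmga2*-/- MEF between the TGFB1 libraries. Between the Ctrl libraries 5 of them were higher (5.81%) and 4 lower (4.65%).

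Among members with at least 1 RPKM and 20 reads in both Ctrl libraries, the largest difference was in an unnamed entry on the strand opposite to *Camk2b* (chr11:6006288-6008328, plus strand). It had 12.4 RPKM in *Hmga2*+/+ Ctrl, 4.62 in *Hmga2*+/+ TGFB1, 3.12 in *Hmga2*-/- Ctrl and 0.861 in *Hmga2*-/- TGFB1. Each genotype was lower with TGFB1 and each treatment lower in *Hmga2*-/- MEF, with a log2 interval of -2.17 to -1.83 in Ctrl and a log2 ratio of -2.42 with TGFB1. *Rian*, a noncoding RNA of the imprinted Dlk1-Dio3 domain (chr12:109649617-109651495, plus strand), had 12.8, 5.85, 5.54 and 3.85 RPKM in the same order. The spliced *Rian* entry with the most reads had 7.25, 4.34, 3.37 and 2.33 RPKM and was lower in *Hmga2*-/- Ctrl as well. *Bhlhe22*, a basic helix-loop-helix factor (chr3:18054325-18057514, plus strand), had 3.8, 4.73, 1.71 and 1.8 RPKM and differed by genotype under both treatments. *Mab21l2*, a developmental gene (chr3:86545581-86548283, minus strand), had 6.78, 3.17, 3.05 and 1.1 RPKM.

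The members highest in *Hmga2*-/- over *Hmga2*+/+ Ctrl had smaller differences and fewer reads. *Sfn* was higher by log2 0.85 (0.56 to 1.14). An entry of *Nrg1*, the neuregulin growth factor (chr8:31814471-31818343, minus strand), had 1.51, 3.47, 2.65 and 4.66 RPKM and was higher by 0.81 (0.61 to 1.01). *Snord17*, a small nucleolar RNA, had 3.08, 5.16, 5.54 and 5.35 RPKM, and the pseudogene *Gm13238* had 1.22, 1.31, 2.17 and 0.841 RPKM. Both were higher in *Hmga2*-/- Ctrl by over 0.8, with intervals of 0.26 to 1.46 and 0.33 to 1.34, and between the TGFB1 libraries their log2 ratios were 0.05 and -0.64. The remaining entry of the 5, without a gene name, had 1.5 and 2.72 RPKM in the Ctrl libraries, with an interval of 0.18 to 1.56.

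**Figure D5:**
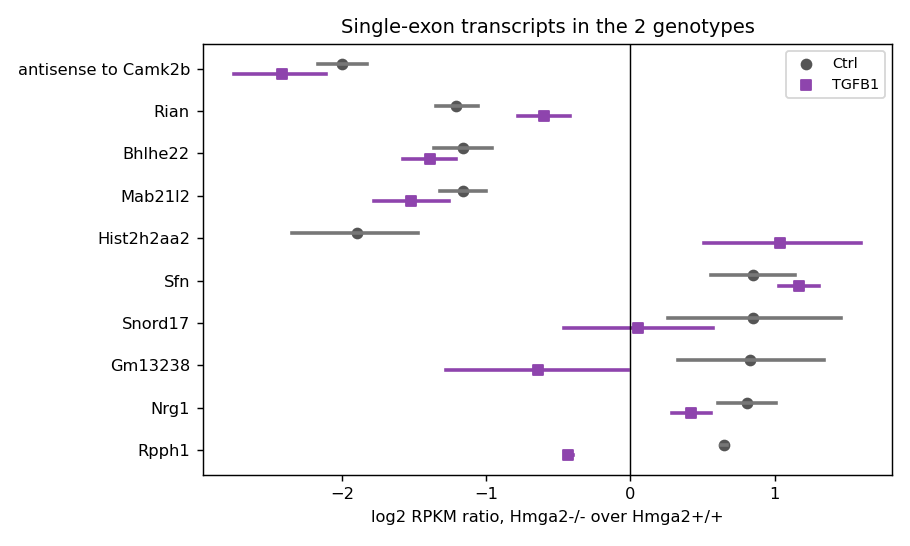
Log2 RPKM ratio of Hmga2-/- over Hmga2+/+ for 10 named members in Ctrl (grey circles) and TGFB1 (purple squares), with exact 95% counting intervals as bars. The entry antisense to Camk2b is at -2.42 with TGFB1, and Hist2h2aa2 and Rpph1 lie on opposite sides of 0 under the 2 treatments.

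The limits of the selection touched some of these genes. The members just inside the RPKM limit had a highest value of 1.000 RPKM, as an entry of *B3galt1*, and those just outside 0.999 RPKM, as one of *Zkscan14*. The shortest member had 203 bases (*Prrc1*), and the longest single-exon entry under the length limit had 197 (*Snora74a*). In 102 members only 1 library reached 1 RPKM. *Dio3*, an imprinted gene for a thyroid hormone-inactivating enzyme, was the 1 member listed at 0 in any library. It was chosen for mention after its values were seen, and had 0.372, 0, 1.62 and 0.038 RPKM, at least 13.3-fold lower with TGFB1 in *Hmga2*+/+ MEF against a floor of 3 reads. Likewise chosen after its values were seen was an unnamed entry at chr15:86194749-86195280 (plus strand), with 8.52, 0.099, 4.76 and 0.232 RPKM from 254, 3, 143 and 7 reads, low in both TGFB1 libraries.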

How the data were processed

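RNA was prepared with a stranded total RNA kit and sequenced as single reads. The authors used Trimmomatic for trimming, HISAT2 2.1.0 for mapping to mm10, and counted reads on the annotated strand with HOMER over UCSC known genes. Per the file headers the deposited values are RPKM. The header names exons as the counted feature and the methods name genes. Spliced *Rian* entries with the same start and end had 1441 and 858 reads in *Hmga2*+/+ Ctrl. For these entries the counted bases were therefore not the whole span. The other deposited column used, length, is the end minus the start for an entry without introns. All per-sample columns were used (0 left out).

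Mapped reads were derived from low RPKM values of entries under 600 bases, of which 100% lay within 0.1 of a whole read, and gave exact conditional binomial (Clopper-Pearson) intervals. At this depth 3 reads are worth 0.0524 to 0.0534 RPKM for an entry of 1 kilobase. A value of 0 RPKM was set to 0.001 and a change was called at 1.5-fold, as in the study. Since the values are RPKM and each condition has 1 library, no test was run and no p-value is given.

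Entries were named by GENCODE vM21 where at least 50% overlapped, and sequences were read from its transcripts or RefSeq promoters. Entries outside annotated exons have no sequence here. Among the 901 members with sequence, 45 shared at least 100 bases at 95% identity with another member (BLAST 2.17.0), 11 of them histones. Python 3.11.15, pandas 2.3.3, numpy 2.4.6, scipy 1.17.1 and matplotlib 3.10.9 were used, and the steps were tested on simulated data. Members, gene lists and the division by reading frame were chosen with earlier results of these data known. Named members were the 5 largest changes each way per comparison, given 1 RPKM and 20 reads or more in both libraries, the 5 highest levels outside the mitochondrial genome, the 5 intronic members farthest from their host each way, and genes of the lists; some of these are not reported here. Alternatives changed the value given to 0, the filters, the scaling, the fold threshold, the members and the host.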

Additional observations from a re-analysis of the deposited data

Results flagged for a closer look

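*Hist2h2aa2* went in opposite directions with TGFB1 in the 2 genotypes, with a log2 change of -2.29 in *Hmga2*+/+ MEF (interval -2.79 to -1.82) and 0.65 in *Hmga2*-/- MEF (0.16 to 1.16). With 1 library per condition the difference between the genotypes was not tested, and reads from near-identical histone genes cannot be told apart here.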

How the results depend on the processing

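No paired analysis was possible because each condition had 1 library. Of 100 recomputed values 68 stayed within the limits set for them, and none changed sign. With a pseudocount of 1 RPKM, 103 members were higher and 141 lower with TGFB1 in *Hmga2*+/+ MEF, 106 and 142 in *Hmga2*-/- MEF, 9 and 14 between the Ctrl libraries, and the intronic median in *Hmga2*-/- MEF was -0.19. Without the RPKM limit the counts were 500 and 787, 520 and 858, 366 and 395, with TGFB1 medians of -0.08 and -0.11. At 2-fold they were 73 and 109, 74 and 118, 14 and 17. Without members in a spliced exon they were 38 and 70, 44 and 77, 20 and 20, with medians of -0.10 and -0.13. When the mean had to reach 1 RPKM, 32 were lower in *Hmga2*-/- Ctrl, and after rescaling by the median ratio the *Hmga2*+/+ median was -0.01. With members of up to 10% exonic bases, added after the data were seen, the *Hmga2*-/- intronic median was -0.18. Depth limits low members most, since 3 reads are worth 0.0524 to 0.0534 RPKM at 1 kilobase.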
